A study of Mus musculus with 8 samples.

Results

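Myeloid chemokine and colony-stimulating factor receptors were followed in single kidney cells: the chemokine receptors *Ccr1*, *Ccr2*, *Ccr7* and *Cx3cr1*, the atypical chemokine receptor *Ccrl2*, and the colony-stimulating factor receptors *Csf1r*, *Csf2ra*, *Csf2rb* and *Csf3r*. They were picked by gene symbol, as receptors that set where myeloid cells go and stay, and all 9 were found among the 57010 genes of the count table. Transcripts were counted in leukocyte-enriched kidney suspensions of male wild-type C57BL/6 mice under 7 conditions. These were untouched control kidneys (CTRL) and kidneys taken 1, 7 or 14 days after unilateral ischemia-reperfusion injury (IRI) from mice given vehicle (IRI_D1, IRI_D7, IRI_D14) or entospletinib, an inhibitor of spleen tyrosine kinase (E_IRI_D1, E_IRI_D7, E_IRI_D14). Dosing began before the injury, was daily up to day 7 and less frequent afterward, so the groups of different days also differ in dosing. Each condition was a single pool of 3 mice, and control kidneys received neither the injury nor the vehicle.

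Chemokine receptors are G protein-coupled receptors that steer leukocytes along gradients of their ligands. CCR2 lets monocytes leave the bone marrow toward CCL2 and its relatives, CX3CR1 binds fractalkine and is typical of resident macrophages and patrolling monocytes, and CCR7 guides dendritic cells and lymphocytes to lymph nodes. Colony-stimulating factor receptors support the survival and maturation of these cells. CSF1R serves the macrophage lineage and CSF3R the neutrophil, whereas the CSF2RA and CSF2RB chains together form the receptor for granulocyte-macrophage colony-stimulating factor.

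After the limits on cell quality, 79389 cells with 238942003 counts remained, with 5806 to 20571 cells per condition. Median depth per condition ranged from 2071.5 to 2930 counts per cell, except under entospletinib at day 14, where it was 960 counts. A limit on ribosomal protein gene counts removed 29.0%, 12.1% and 24.0% of cells under entospletinib at days 1, 7 and 14, against 8.53%, 4.98% and 4.23% under vehicle and 5.41% in the control. The deposited samples were 8 sublibraries, each holding cells of all conditions, and 13712 of 105340 barcode well combinations occurred in more than 1 sublibrary. Levels are counts summed over the cells of a class, as CPM, a gene's share of all counts of the class on a common scale. They are not corrected for gene length, so each receptor is compared with itself only. The SD over the 8 sublibraries measures technical error, all intervals cover counting error only, and with 1 pool per condition no difference between conditions was tested. Cells fell into 17 classes named from marker genes that included none of the receptors. No marker of the macrophage, classical monocyte, nonclassical monocyte or neutrophil lists was at 0 in the class of that name, in any condition for which the lists were summed.

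*Csf3r*, *Ccr1* and *Ccrl2* were highest in neutrophil-like cells (13818 cells). *Csf3r*, the receptor for granulocyte colony-stimulating factor, reached 2535 ± 46.3 CPM (SD, n = 8 sublibraries) there, against 166 ± 17.1 CPM in nonclassical monocyte-like, 111 ± 6.81 CPM in classical monocyte-like and 109.9 ± 5.94 CPM in macrophage-like cells. *Ccr1*, a receptor for CCL3, CCL5 and related ligands, reached 617 ± 17.7 CPM in neutrophil-like and 154 ± 3.69 CPM in classical monocyte-like cells. *Ccrl2*, which binds chemerin and is not known to signal itself, reached 569.6 ± 14.0 CPM in neutrophil-like cells and at most 81.2 CPM in any other class. For each of these receptors the sublibrary range of neutrophil-like cells lay above that of the next class. For *Ccrl2*, the ranges of type 2 conventional dendritic cell (cDC2)-like (81.2 CPM), classical monocyte-like (61.9 CPM), nonclassical monocyte-like (58.9 CPM) and macrophage-like cells (50.1 CPM) overlapped from each to the next.

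On GRCm38 (GENCODE vM21), *Ccr1* (chr9:123962124-123968692), *Ccr2* (chr9:124101950-124113557), *Ccrl2* (chr9:111054486-111057519) and *Cx3cr1* (chr9:119901616-120069879) share a chromosome. *Ccr7* lies at chr11:99144196-99155077, *Csf2ra* at chr19:61223957-61228429, *Csf2rb* at chr15:78325752-78353847 and *Csf3r* at chr4:126024550-126044440, all of them protein coding. Promoters of 6 of the 9 receptors were found in RefSeq's table for GRCm38.p6, in 8 entries that run from 250 bases before to 50 after a start site. The letters GAGGAA, the core of sites bound by the myeloid ETS factor PU.1, were searched on both strands, and 28.3% of all 32851 promoters of this length hold them. The promoters below belong to a pair of receptors that peaked in neutrophil-like cells, *Csf3r* (chr4:126024409-126024708, plus strand) and *Ccr1* (chr9:123968643-123968942, minus strand), and to a receptor that peaked in macrophage-like cells, *Cx3cr1* (chr9:120068247-120068546, minus strand). The *Csf3r* entry held 1 match, 86 bases before the start, the *Ccr1* entry 1 match, 129 bases before the start, and the *Cx3cr1* entry none. Capitals mark the match.
Csf3r: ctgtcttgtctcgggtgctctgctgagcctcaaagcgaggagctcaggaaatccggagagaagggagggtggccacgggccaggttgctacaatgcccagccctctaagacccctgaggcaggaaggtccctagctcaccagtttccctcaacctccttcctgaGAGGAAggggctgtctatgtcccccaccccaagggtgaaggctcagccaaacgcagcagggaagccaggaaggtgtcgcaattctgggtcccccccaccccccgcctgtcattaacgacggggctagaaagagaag
Ccr1: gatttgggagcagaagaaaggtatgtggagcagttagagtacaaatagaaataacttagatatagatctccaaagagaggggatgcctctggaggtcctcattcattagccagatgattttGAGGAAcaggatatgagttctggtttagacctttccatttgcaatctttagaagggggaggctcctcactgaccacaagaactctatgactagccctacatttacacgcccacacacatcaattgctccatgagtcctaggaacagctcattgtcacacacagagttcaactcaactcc
Cx3cr1: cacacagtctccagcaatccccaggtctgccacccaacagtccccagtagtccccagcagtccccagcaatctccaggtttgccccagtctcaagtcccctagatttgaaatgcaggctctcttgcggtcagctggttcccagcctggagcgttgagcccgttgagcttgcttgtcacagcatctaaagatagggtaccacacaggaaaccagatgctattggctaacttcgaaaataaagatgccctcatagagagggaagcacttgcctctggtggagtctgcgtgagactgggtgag
The *Csf2ra* entry held 2 matches, 14 and 8 bases before its start. The entries of *Ccr2* and of *Ccrl2*, which also peaked in neutrophil-like cells, held none. A longer form of the core, GAGGAAGT, is held by 3.20% of all promoters and was found in none of the 8 entries. The matches describe the letters of these windows only.

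*Cx3cr1* and *Csf1r* were highest in the macrophage lineage. *Cx3cr1* reached 944 ± 24.9 CPM in macrophage-like cells (23797 cells) and 503 ± 33.8 CPM in nonclassical monocyte-like cells, with 229 CPM in cDC2-like and 216 CPM in classical monocyte-like cells, whose ranges overlapped. The *Cx3cr1* gene model overlaps 9 other genes, and whether counting used the strand was not given in the sources used here. *Csf1r*, the receptor for CSF1 and interleukin-34, was highest in nonclassical monocyte-like cells (786 ± 63.2 CPM), followed by macrophage-like (673 ± 17.8 CPM) and classical monocyte-like cells (449.6 ± 20.3 CPM), with no overlap from each to the next. *Ccr2* was highest in classical monocyte-like cells (641 ± 18.8 CPM), then in cDC2-like (527 ± 29.6 CPM) and type 1 conventional dendritic cell (cDC1)-like cells (475 ± 36.3 CPM), the last pair overlapping. *Ccr2* stood at 311 CPM in both macrophage-like and natural killer cell-like cells.

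*Ccr7* was highest in migratory dendritic cell-like cells (1753 ± 360.3 CPM, 389 cells) and B cell-like cells (333 ± 25.6 CPM), followed by cDC2-like cells at 45.4 CPM. The chains of the granulocyte-macrophage colony-stimulating factor receptor differed in their spread over the classes. *Csf2ra*, the ligand-specific chain, was at 411 ± 14.1 CPM in neutrophil-like, 354 ± 25.1 CPM in nonclassical monocyte-like and 301 ± 14.0 CPM in classical monocyte-like cells, with overlap from each to the next, and at 243 CPM in macrophage-like cells. *Csf2rb*, the signaling chain shared with the interleukin-3 and interleukin-5 receptors, was highest in a small basophil-like or mast cell-like class (1830 ± 703 CPM, 78 cells). It followed in neutrophil-like cells at 965 ± 24.6 CPM and in classical monocyte-like cells at 417 CPM, and stood at 126 CPM in macrophage-like cells. *Csf2rb2* is a near-identical copy of *Csf2rb*, so the division of counts between the pair is uncertain. The heat map of receptor level by class shows all 9 receptors.

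**Figure D1:**
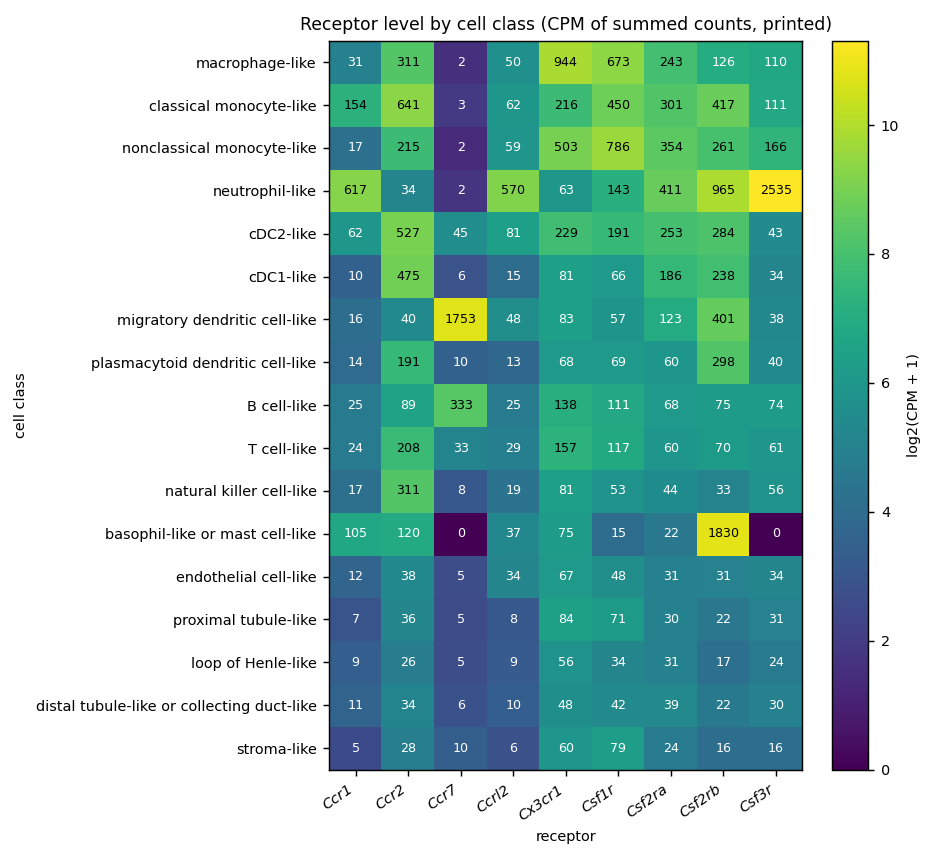
Level of each receptor (columns) in each of 17 cell classes (rows) over all 7 conditions. Color gives log2(CPM + 1) and the printed number gives CPM. *Csf3r*, *Ccr1* and *Ccrl2* peak in neutrophil-like cells, *Cx3cr1* in macrophage-like cells and *Ccr7* in migratory dendritic cell-like cells.

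Classes differed in depth, with a median of 1350 counts in neutrophil-like, 4093.5 in classical monocyte-like and 4807 in cDC1-like cells. Cells were therefore also thinned to 500 counts each, which left out 146 neutrophil-like, 458 macrophage-like, 5 classical monocyte-like, 50 T cell-like and 7 proximal tubule-like cells. *Csf3r* was then seen in 65.6% of neutrophil-like cells (87.2% unthinned) and in 1.47% of T cell-like cells (7.81% unthinned, median 2010.5 counts), a class that should lack it. *Cx3cr1* was seen in 37.1% of macrophage-like cells (77.1% unthinned, median 2329 counts) and in 3.45% of proximal tubule-like cells (14.9% unthinned, median 2548 counts). *Ccr2* was seen in 25.4% of classical monocyte-like cells (75.6% unthinned) and in 1.48% of proximal tubule-like cells (7.29% unthinned). Classes that should lack a receptor thus carried it in a small share of cells, and the leading classes lay far above that share.

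Genes whose level followed each receptor most closely over the 17 classes were named by Pearson's r of log2(CPM + 1), among 11164 genes. This is a description over classes that share libraries. *Ccrl2* was followed most closely by the cytokine gene *Il1b* (r = 0.96), *Csf3r* by the lipopolysaccharide co-receptor gene *Cd14* (r = 0.96), and *Ccr1* by the prostaglandin synthase gene *Ptgs2* (r = 0.93). *Csf1r* was followed most closely by the RNA sensor gene *Tlr8* (r = 0.97) and *Csf2ra* by the adaptor gene *Card9* (r = 0.97). *Csf2rb* was followed by *Plek* (r = 0.95), and *Ccr2* by *Disc1* (r = 0.89). For *Cx3cr1*, the closest gene with a symbol was the apolipoprotein gene *Apoe* (r = 0.93), and *Ccr7* was followed by the predicted gene *Gm33843* (r = 0.94) and the class II gene *H2-Eb2* (r = 0.93).

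The first comparison asked how receptor levels in macrophage-like cells differed between injured and untouched kidneys. *Ccr1* and *Ccrl2* were higher in vehicle-treated injured kidneys at every day, and *Ccr2* and *Csf2rb* at days 7 and 14. *Ccr1* was at 6.70 CPM in the control and at 66.3, 37.2 and 33.1 CPM at days 1, 7 and 14 under vehicle. *Ccrl2* was at 17.7 CPM in the control and at 60.1, 66.5 and 78.4 CPM at these days. *Ccr1* was thus highest at day 1 and *Ccrl2* at day 14, and every injured pool lay above the control.

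*Ccr2* in macrophage-like cells was at 192 CPM in the control and at 134, 389.7 and 447 CPM at days 1, 7 and 14 under vehicle. *Csf2rb* was at 66.3 CPM in the control and at 98.9, 142 and 205 CPM, and *Csf3r* at 75.3 CPM and then 111, 110.0 and 159 CPM. *Ccr2* was thus lower than in the control at day 1 (relative to the median gene, at -0.69 as a log2 ratio, but 0.06 with cells assigned one by one) and higher at days 7 and 14, while *Csf2rb* and *Csf3r* were highest at day 14. *Cx3cr1* was at 701 CPM in the control and at 834, 695 and 978 CPM, *Csf1r* at 660.1 CPM and then 678, 581 and 685 CPM, and *Csf2ra* at 246 CPM and then 337, 176 and 199 CPM.

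Ratios are given as relative log2 ratios, that is, log2 of the ratio of CPM minus its median over the genes that averaged 20 CPM or more in the class, 6025 genes in macrophage-like cells. These medians ranged from -0.27 to 0.33. A gene was called when it lay at least 2-fold from that median. Of the 9 receptors, 8 passed the 20 CPM limit in macrophage-like cells and *Ccr7* did not. At day 1, vehicle over control, 2 of 8 receptors were called, against 12.9% of all genes tested. These were *Ccr1* at 3.12 (counting interval 2.80 to 3.48) and *Ccrl2* at 1.59 (1.36 to 1.82). At day 7, 4 of 8 were called against 4.25%, namely *Ccr1* at 2.74, *Ccrl2* at 2.18, *Csf2rb* at 1.38 and *Ccr2* at 1.30. At day 14, 5 of 8 were called against 5.24%, namely *Ccr1* at 2.37, *Ccrl2* at 2.22, *Csf2rb* at 1.70, *Ccr2* at 1.29 and *Csf3r* at 1.15. All of these ratios were higher with injury in 8 of 8 sublibraries, and *Csf3r* at day 14 was at 0.94 without called doublets. Without them *Csf3r* at day 1 turned from 0.38 to -0.57, and *Csf2rb* at day 1 went from 0.40 to 0.13. Without clusters 5 and 15 of these cells, each with over 20% called doublets, *Ccrl2* was at 1.04, 0.81 and 0.83 on successive days, *Csf2rb* at 0.99 at day 7 and *Csf3r* at 0.82 at day 14. The median over the 8 receptors was 0.33, 1.06 and 1.22 on successive days, beside 0 for all genes by construction.

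The second comparison asked how entospletinib altered receptor levels at the same day. In macrophage-like cells, *Ccrl2* was at 23.8, 26.1 and 37.3 CPM at days 1, 7 and 14 under entospletinib, and *Ccr1* at 35.1, 22.4 and 14.4 CPM. *Csf2rb* was at 64.0, 87.7 and 100.02 CPM and *Csf3r* at 72.6, 76.8 and 79.3 CPM. All of these values lay below those under vehicle at the same day, and those of *Csf3r* lay around the control value of 75.3 CPM. For *Csf3r* at day 1 the relative log2 ratio of -0.51 turned to 0.07 without called doublets. *Cx3cr1* was at 1333, 1105 and 1351 CPM, above vehicle at every day. *Ccr2* was at 140.4, 447 and 236 CPM. At day 7 the median gene itself had a log2 ratio of 0.33, and relative to it *Ccr2* stood at 0.16, -0.13 and -1.02 on successive days, so it passed 2-fold at day 14 only, where it was lower. *Csf1r* was at 665, 724 and 717 CPM, and *Csf2ra* at 329, 233 and 261 CPM, the latter at 0.06, 0.07 and 0.28 relative to the median gene. The bar plot of macrophage-like cells gives these levels side by side.

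**Figure D2:**
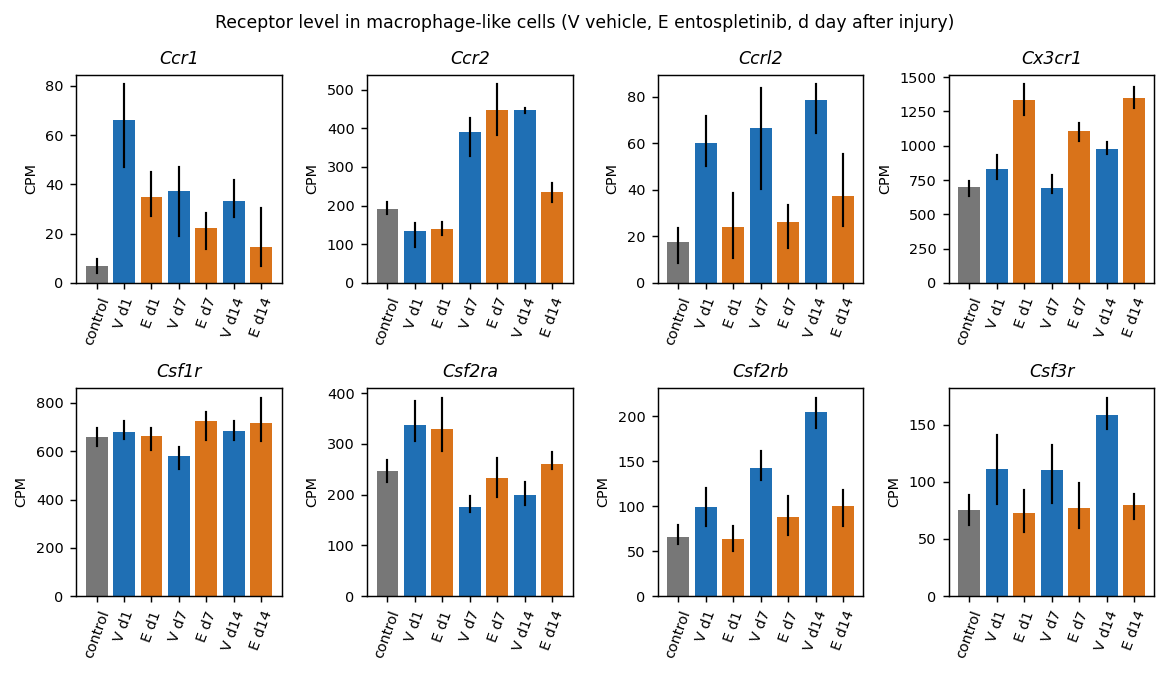
Level in CPM (vertical axis) of 8 receptors in macrophage-like cells by condition (horizontal axis). Bars give the pooled value and black lines the range over 8 sublibraries, in gray for control, blue for vehicle (V) and orange for entospletinib (E). *Ccr1*, *Ccrl2* and *Csf2rb* are lower and *Cx3cr1* is higher under entospletinib than under vehicle at each day.

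Relative to the median gene, 1 of 8 receptors was called at day 1, entospletinib over vehicle, against 0.664% of all genes tested: *Ccrl2* at -1.23 (counting interval -1.52 to -0.96). At day 7, 3 of 8 were called against 1.94%, namely *Ccrl2* at -1.67, *Ccr1* at -1.06 and *Csf2rb* at -1.03. At day 14, 5 of 8 were called against 2.39%, namely *Ccr1* at -1.30, *Ccrl2* at -1.17, *Csf2rb* at -1.14, *Csf3r* at -1.11 and *Ccr2* at -1.02. Each was lower in 8 of 8 sublibraries, except *Ccr1* at day 14, which was lower in 7. *Cx3cr1* did not reach 2-fold but was higher in 8 of 8 sublibraries at each day, at 0.77 ± 0.13 (SD, n = 8), 0.34 ± 0.14 and 0.36 ± 0.05. *Csf1r* stood at 0.07 ± 0.10, -0.01 ± 0.13 and -0.04 ± 0.14, within its technical spread. The vehicle pools enter both sets of ratios, so the higher values over control and the lower values under entospletinib are not independent. Over the alternative settings, the ratio closest to 0 was -0.70 for *Ccrl2* at day 1, -0.36 for *Ccr1*, -0.64 for *Csf2rb* and -0.99 for *Ccrl2* at day 7, and -0.57 for *Ccrl2* and -0.84 for each of *Ccr2*, *Csf2rb* and *Csf3r* at day 14, so each of these fell short of 2-fold in at least 1 setting. All of them but *Ccrl2* at day 1 and *Ccr2* at day 14 came closest when clusters 5 and 15 were left out. *Ccr1* at day 14 stayed past 2-fold in all of the settings.

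Low levels of several receptors were also found in T cell-like cells, where they went with called doublets. In T cell-like cells, *Csf3r* was at 19.6 CPM in the control, at 91.3, 70.9 and 78.0 CPM under vehicle and at 126, 35.3 and 21.5 CPM under entospletinib at days 1, 7 and 14. *Csf2rb* in T cell-like cells was at 21.8 CPM in the control, at 77.9, 91.5 and 102 CPM under vehicle and at 48.0, 35.3 and 17.2 CPM under entospletinib. *Ccrl2* was at 10.2 CPM, then 36.5, 22.1 and 42.3 CPM, and 15, 9.20 and 11.8 CPM, and *Ccr1* at 5.78 CPM, then 43.8, 45.8 and 28.7 CPM, and 18, 15.3 and 11.8 CPM. Without called doublets, which left 109 to 1413 T cell-like cells per condition, *Csf3r* was at 11.8 CPM in the control, at 19.4, 18.8 and 22.2 CPM under vehicle and at 35.02, 11.1 and 15.9 CPM under entospletinib. *Csf2rb* was then at 9.34 CPM, then 30.99, 14.1 and 26.5 CPM, and 8.76, 6.68 and 7.34 CPM, and *Ccr1* at 3.11 CPM, then 11.6, 2.36 and 6.22 CPM, and 8.76, 8.90 and 9.79 CPM. The levels under vehicle were thus lower without called doublets. *Csf2rb* still lay lower under entospletinib than under vehicle at every day, and *Ccr1* at day 1 only. These levels rest on few counts, in pools of as few as 109 cells and without intervals, so no contrast between the receptors is drawn.

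All 8 neutrophil markers were detected in macrophage-like cells of every condition, and their summed level was 138 CPM in the control, 728, 382 and 369 CPM under vehicle and 439, 171 and 191 CPM under entospletinib at days 1, 7 and 14. Under vehicle at day 1, that sum was 3.11% of its level in neutrophil-like cells. Carried over in the same ratio, neutrophil-like transcripts would amount to 87.5 of the 111 CPM of *Csf3r*, 21.3 of the 66.3 CPM of *Ccr1*, 18 of the 60.1 CPM of *Ccrl2* and 29.8 of the 98.9 CPM of *Csf2rb*. Under vehicle at day 14, where the sum was 2.93%, they would amount to 60.7 of 159 CPM for *Csf3r*, 15.2 of 33.1 CPM for *Ccr1*, 22.5 of 78.4 CPM for *Ccrl2* and 37.6 of 205 CPM for *Csf2rb*. With the carried amount subtracted, *Csf3r* in macrophage-like cells at day 1 would be at 23.4 CPM under vehicle and 36.6 CPM under entospletinib, so its direction would turn. Relative to the median gene, *Ccrl2* would then stand at -1.03 at day 1 (42.1 CPM under vehicle, 19.3 CPM under entospletinib) and at -1.18 at day 7 (40.4 and 22.4 CPM), still past 2-fold. At day 7 *Csf2rb* would stand at -0.59 (97.2 and 81.2 CPM) and *Ccr1* at -0.68 (22.9 and 17.9 CPM), both short of it. *Csf2rb* under vehicle at day 1 would be at 69.1 CPM. The control's 66.3 CPM had nothing subtracted, although neutrophil markers were found there too, so this pair cannot be compared. The carried amounts hold only if all genes carry over in 1 ratio and the cells transcribe none of the markers themselves. Neither was tested. Entospletinib at day 14 had too few neutrophil-like cells for such a ratio. *Cx3cr1* was at 46.7 to 191 CPM and *Ccr2* at 11.7 to 115 CPM in neutrophil-like cells over the conditions, below their levels in macrophage-like cells of every condition.

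Macrophage-like cells were spread over several clusters whose shares differed between conditions. Cluster 3 held 80.0% of them under vehicle and 58.7% under entospletinib at day 1, cluster 5 held 53.6% in the control and 37.8% under entospletinib at day 7, and cluster 0 held 50.4% under entospletinib at day 14. Cluster 15, with *Ccrl2* at 162 CPM and *Csf3r* at 230.3 CPM, held 24.7% of macrophage-like cells under vehicle and 3.88% under entospletinib at day 14, and 21.4% and 5.86% at day 7. Called doublets made up 22.7% of cluster 15 and 22.9% of cluster 5. Leaving out both clusters lowered the number of macrophage-like ratios past 2-fold from 20 to 10 of 48, a setting chosen after the data were seen. Within single clusters, *Ccr2* was lower under entospletinib at day 14 in 6 of 6 clusters that could be compared, with relative log2 ratios from -1.34 to -0.59. *Csf2rb* was lower in 6 of 6 (-0.93 to -0.27), *Csf3r* in 6 of 6 (-1.15 to -0.37), *Ccr1* in 6 of 6 (-2.14 to -0.09) and *Ccrl2* in 5 of 6 (-1.62 to 0.14), whereas *Cx3cr1* was higher in 6 of 6 (0.13 to 0.35). At day 7, *Ccrl2* was lower in 5 of 5 clusters (-1.68 to -0.31), *Ccr1* in 5 of 5 (-0.92 to -0.09) and *Csf2rb* in 5 of 5 (-0.91 to -0.37), *Cx3cr1* was higher in 5 of 5, and *Ccr2* was higher in 3 and lower in 2. In every cluster the ratio was closer to 0 than in the class for *Csf2rb* at both days, for *Ccr1* at day 7 and for *Cx3cr1* at day 14. At day 1 only cluster 3 could be compared, with *Ccrl2* at -0.90 and *Csf3r* at 0.01.

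Vehicle over control, cluster 3 at day 1 held *Ccr1* at 3.60 but *Ccrl2* at 0.04 (52.4 CPM under vehicle, 42.0 CPM in the control), so the higher *Ccrl2* of the class at that day did not appear inside this cluster. *Ccr1* was higher in 5 of 5 clusters at day 7 (0.49 to 2.55) and in 7 of 7 at day 14 (0.84 to 2.99), and *Ccr2* in 5 of 5 (0.54 to 1.69) and 7 of 7 (0.61 to 1.68). *Csf2rb* was higher in 5 of 5 (0.77 to 1.17) and 7 of 7 (0.82 to 1.64), and *Ccrl2* in 4 of 5 (-0.13 to 1.57) and 7 of 7 (0.78 to 2.06). For *Ccrl2* and *Csf2rb* every cluster compared lay below the ratio of the class at both days. Cluster 15 held 75 cells in the control, too few for a ratio.

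Classical monocyte-like cells, the circulating inflammatory monocytes, showed *Ccr2* at 649 CPM in the control, at 687, 453 and 642 CPM under vehicle and at 535, 755 and 307 CPM under entospletinib at days 1, 7 and 14. *Cx3cr1* was at 378 CPM in the control, at 167, 211 and 419 CPM under vehicle and at 313, 474 and 554 CPM under entospletinib. *Csf2rb* was at 225 CPM, then 453, 454 and 416 CPM, and 288, 196 and 192 CPM. *Cx3cr1* was thus higher and *Csf2rb* lower under entospletinib than under vehicle at every day, and *Ccr2* was lowest under entospletinib at day 14. *Ccr1* was at 36.4 CPM in the control, at 181, 100.4 and 70.6 CPM under vehicle and at 121, 57.3 and 45.5 CPM under entospletinib, but its day 14 relative log2 ratio of -0.69 turned to 0.25 with cells assigned one by one.

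Of the 9 receptors, 8 passed the 20 CPM limit in classical monocyte-like cells, among 5450 genes. Entospletinib over vehicle, 1 of 8 was called at day 1 against 0.826% of genes, *Cx3cr1* at 1.07 (counting interval 0.99 to 1.16). At day 7, 3 were called against 11.3%, *Csf2rb* at -1.58, *Ccrl2* at -1.33 and *Ccr1* at -1.17. At day 14, 3 were called against 5.71%, *Csf2rb* at -1.19, *Ccr2* at -1.14 and *Csf3r* at -1.09, with 329 cells in the entospletinib pool. Vehicle over control, 2 were called at day 1 against 9.82% (*Ccr1* at 2.11 and *Cx3cr1* at -1.36), 4 at day 7 against 15.6% (*Ccr1* at 1.70, *Ccrl2* at 1.68, *Csf2rb* at 1.27 and *Csf3r* at -1.01) and 1 at day 14 against 4.64% (*Ccrl2* at 1.24). Over the alternative settings, *Cx3cr1* at day 1 and *Ccr2* and *Csf2rb* at day 14, entospletinib over vehicle, came as close to 0 as 0.76, -0.90 and -0.96. Vehicle over control, *Cx3cr1* at day 1 was at -0.05 without the 20 CPM filter, where the median gene lay at -1.13 instead of 0.18. In the same comparison *Csf3r* at day 7 and *Ccrl2* at day 14 came as close as -0.50 and 0.76. The control held 198 such cells, and *Ccrl2* at day 14 was higher in 6 of 8 sublibraries only. Cluster 10 held 70.6% of these cells under vehicle at day 7 and cluster 8 held 75.2% under entospletinib, and *Cx3cr1* averaged 161 CPM in the former and 323 CPM in the latter cluster. If all neutrophil marker counts in these cells were carried over, the carried part under vehicle at day 1 would be 112 of the 114 CPM of *Csf3r*. For *Csf2rb* it would be 38.1 of the 453 CPM. Whether these cells transcribe some of the markers themselves was not tested, and the carried amounts would then be too high. With the carried amount subtracted, *Ccrl2* at day 1, entospletinib over vehicle, would turn from -0.29 to 0.12 (39.9 CPM under vehicle, 38.6 CPM under entospletinib). *Csf2rb* would stand at -0.43 at day 1. At day 7 *Csf2rb*, *Ccrl2* and *Ccr1* would stand at -1.55, -1.15 and -1.23, still past 2-fold.

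Nonclassical monocyte-like cells, which patrol the vessel wall, formed a single cluster. *Csf1r* was at 656 CPM in the control, at 799 CPM at day 1 and 741 CPM at day 14 under vehicle, and at 809.8 CPM and 743 CPM under entospletinib at the same days. *Csf2rb* was at 121 CPM in the control, at 323 CPM and 204 CPM under vehicle and at 206 CPM and 146 CPM under entospletinib. *Csf1r* was thus close in both treatments, and *Csf2rb* was lower under entospletinib at both days. At day 7 vehicle held 42 such cells, and no relative ratio was formed. Here 7 of the 9 receptors passed the 20 CPM limit, *Ccr1* and *Ccr7* being below it. None of the 7 was called under entospletinib over vehicle, against 0.331% of genes at day 1 and 17% at day 14, but at day 14 some passed it under other settings. With cells assigned one by one, *Ccrl2* at day 14 turned from 0.23 to -1.74, *Ccr2* was at -1.24 and *Csf2rb* at -1.01. Vehicle over control, *Ccrl2* (1.54) and *Csf2rb* (1.2) were called at day 1 against 6.21%, and *Ccrl2* (1.39, higher in 6 of 8 sublibraries) at day 14 against 9.72%. With coarser clusters (resolution 1) these were at 0.88, 0.74 and 0.78.

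In neutrophil-like cells, *Csf3r* was at 2812, 1369 and 2072 CPM at days 1, 7 and 14 under vehicle and at 2470 and 2992 CPM at days 1 and 7 under entospletinib. *Csf2rb* was at 956, 1157 and 1284 CPM under vehicle and at 631 and 668 CPM under entospletinib, and *Ccrl2* at 578, 669 and 767 CPM under vehicle and at 311 and 383 CPM under entospletinib. *Csf3r* was thus lowest under vehicle at day 7, and *Csf2rb* and *Ccrl2* were lower under entospletinib at both days. The control held 64 and entospletinib at day 14 held 42 neutrophil-like cells, too few for a ratio. *Csf3r* there was at 3783 CPM and 2332 CPM.

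Of 8 receptors tested in neutrophil-like cells among 4650 genes, 1 was called at day 1, entospletinib over vehicle, against 3.87% of genes: *Cx3cr1* at 1.31 (46.7 CPM under vehicle, 111 CPM under entospletinib), and 0.98 without the 20 CPM filter. At day 7, 1 was called against 21.8%: *Csf3r* at 1.09 (counting interval 0.96 to 1.21), from 117 cells under entospletinib. It was at 0.88 with cells assigned one by one without the ribosomal limit. Without the 20 CPM filter it was at -0.40, as the median gene then lay at 1.53 instead of 0.04. *Ccrl2* was at -0.83 ± 0.26 at day 1 and -0.84 ± 0.70 at day 7, and *Csf2rb* at -0.54 ± 0.07 and -0.83 ± 0.74 (SD, n = 8). Vehicle at day 7 over day 1, 1 was called against 19.6% (*Csf3r* at -1.05), and vehicle at day 14 over day 1, 1 against 17.8% (*Cx3cr1* at 1.23, and 0.75 without the filter). Macrophage markers in neutrophil-like cells summed to 238, 278 and 542 CPM at days 1, 7 and 14 under vehicle and to 368 CPM and 337 CPM at days 1 and 7 under entospletinib, with 1 of 8, *Axl*, at 0 in the last. The part of these transcripts in the *Cx3cr1* ratios was not tested. Cluster 7, with *Csf3r* at 1651 CPM and *Ccrl2* at 877 CPM, held 82.5% of neutrophil-like cells under vehicle at day 7 and 29.9% under entospletinib. Cluster 4, with *Csf3r* at 3030 CPM and *Ccrl2* at 358 CPM, held 53.8% under entospletinib at day 7. The plot of relative ratios sets the classes side by side.

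**Figure D3:**
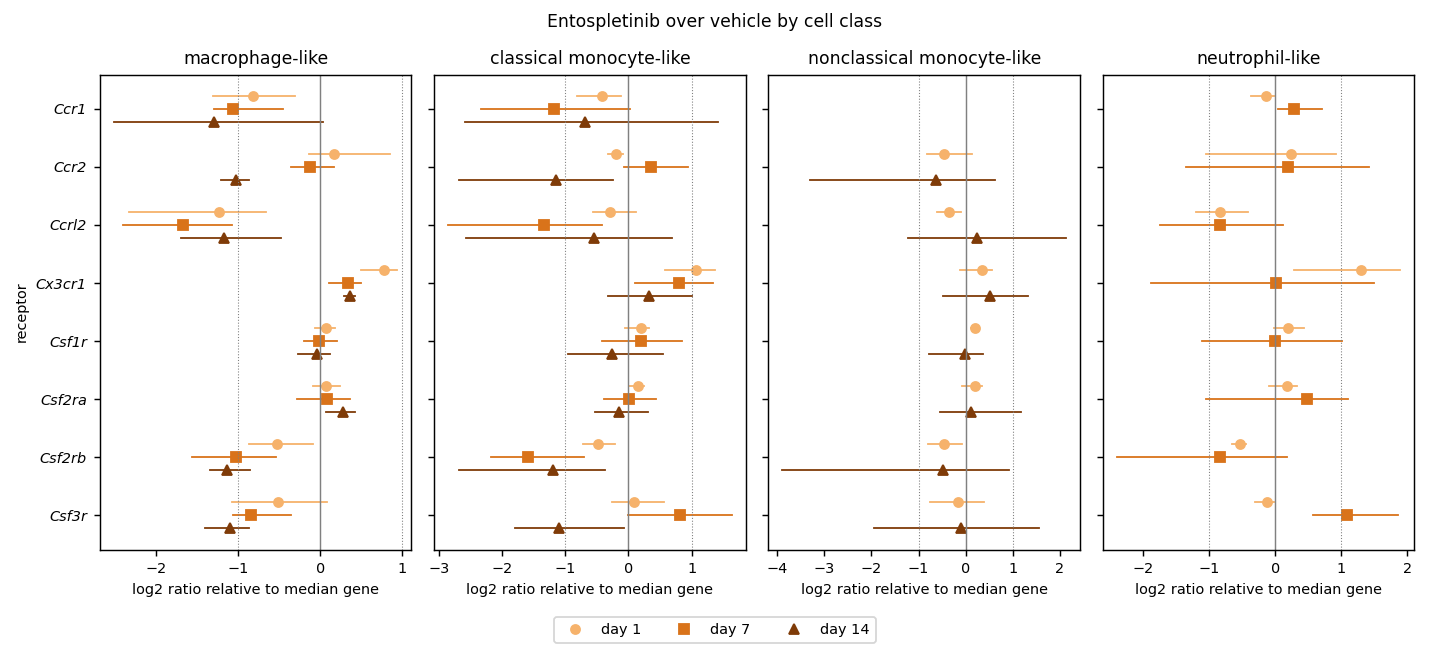
Relative log2 ratio of entospletinib over vehicle (horizontal axis, 0 being the median gene) for each receptor (vertical axis) in each of the classes named above the panels. Points give the pooled ratio at days 1, 7 and 14, lines the range over 8 sublibraries, and dotted lines the 2-fold limits. *Ccrl2* and *Csf2rb* lie left of 0 and *Cx3cr1* right of 0 at each day in macrophage-like and classical monocyte-like cells, while *Csf1r* stays near 0. Without the 20 CPM filter, *Cx3cr1* in classical monocyte-like cells at day 14 would lie at -0.64, as the median gene would lie at 1.05 instead of 0.08. If all neutrophil marker counts in these cells were carried over, subtracting the carried amount would put *Ccrl2* at day 1 at 0.12.

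In dendritic cells *Csf2rb* and *Ccr7* were followed by condition. In cDC2-like cells *Csf2rb* was at 134 CPM in the control, at 436, 292 and 316 CPM under vehicle and at 210.4, 157 and 208 CPM under entospletinib at days 1, 7 and 14. *Csf2rb* was thus above the control in every injured pool and below vehicle under entospletinib, with relative log2 ratios of -0.90 ± 0.50, -1.19 ± 0.24 and -0.70 ± 0.77 (SD, n = 8). *Ccr7* in cDC2-like cells was at 18.1 CPM in the control, at 21.4, 66.4 and 63.6 CPM under vehicle and at 17.0, 20.5 and 54.5 CPM under entospletinib. *Ccr7* in migratory dendritic cell-like cells was at 1855 CPM in the control, at 2285 CPM at day 1 and 1255 CPM at day 14 under vehicle, and at 2349 CPM and 1762 CPM under entospletinib, from 38 to 145 cells per pool. *Ccr7* in B cell-like cells was at 404 CPM in the control, at 425, 268 and 236 CPM under vehicle and at 322, 402 and 229 CPM under entospletinib.

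The balance of *Ccr2* and *Cx3cr1* was measured as log2 of *Ccr2* counts over *Cx3cr1* counts in the same cells, which needs no scaling. In macrophage-like cells it was -1.87 ± 0.09 (SD, n = 8) in the control, -2.64, -0.83 and -1.13 at days 1, 7 and 14 under vehicle and -3.25, -1.31 and -2.52 under entospletinib. Entospletinib minus vehicle was -0.61, -0.47 and -1.38. In classical monocyte-like cells it was 0.78 in the control, 2.04, 1.1 and 0.61 under vehicle and 0.77, 0.67 and -0.85 under entospletinib, and entospletinib minus vehicle was -1.26, -0.43 and -1.47. In nonclassical monocyte-like cells the difference was -0.81 at day 1 and -1.15 at day 14, and it was 0.09 at day 7, where vehicle held 42 cells. Day 14 there rested on 14 *Ccr2* counts under entospletinib (interval -3.81 to -2.08) and 41 under vehicle (-2.25 to -1.19), and these intervals overlapped. The balance thus lay further toward *Cx3cr1* under entospletinib in each of these comparisons but day 7 in nonclassical monocyte-like cells. The same held in cDC2-like cells (-0.85, -0.57 and -0.51).

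After thinning to 500 counts per cell, *Ccr2* was seen in 17.6% of macrophage-like cells under vehicle and in 8.57% under entospletinib at day 14, and *Cx3cr1* in 38.3% and 43.1%, so the direction held at equal depth. Thinning left out 47 and 406 of these cells. Both receptors were seen in 6.56% (exact binomial interval 6.00% to 7.15%) of macrophage-like cells under vehicle and in 3.17% (2.62% to 3.78%) under entospletinib at day 14, where independent detection would give 6.74% and 3.70%. In the control both were seen in 2.23%, where independent detection would give 2.21%.

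**Figure D4:**
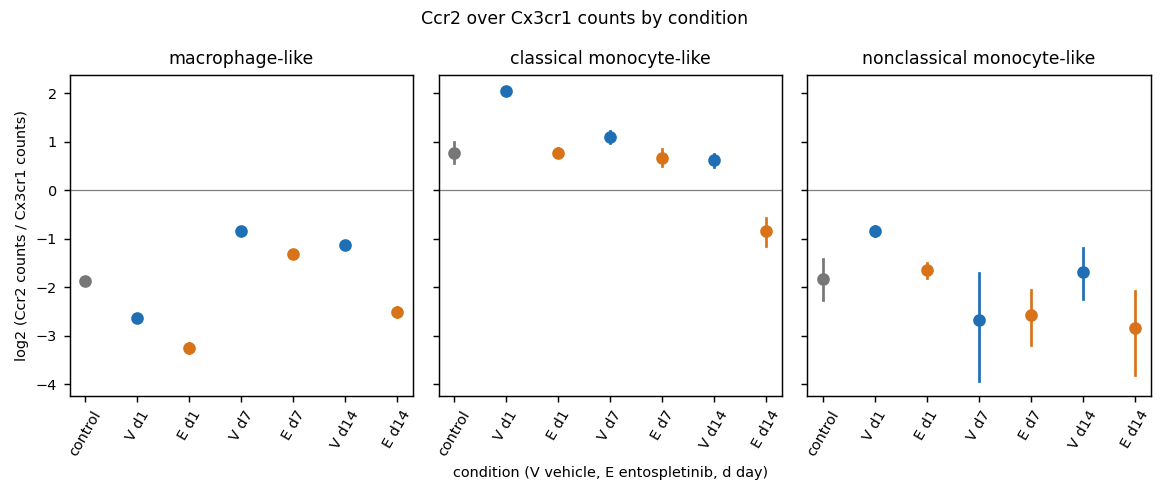
Log2 of *Ccr2* counts over *Cx3cr1* counts (vertical axis) by condition (horizontal axis) in macrophage-like, classical monocyte-like and nonclassical monocyte-like cells, in gray for control, blue for vehicle (V) and orange for entospletinib (E). Points give the pooled value and lines the exact binomial interval. In macrophage-like cells the entospletinib values of -3.25, -1.31 and -2.52 lie below the vehicle values of -2.64, -0.83 and -1.13 at the same days.

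Over the whole sorted suspension, *Csf3r* was at 49.7 CPM in the control, at 640 CPM, 232 CPM and 186 CPM under vehicle over the same days and at 333, 75.9 and 48.7 CPM under entospletinib. *Csf2rb* was at 55.8 CPM, then 437, 336 and 259 CPM, and 192, 79.2 and 78.9 CPM. *Cx3cr1* was at 296 CPM, then 227, 329.8 and 523 CPM, and 479.6, 465 and 573 CPM. *Csf3r* and *Csf2rb* thus peaked at day 1 and were lower under entospletinib at each day. *Cx3cr1* was higher, except that without the ribosomal limit it stood at 517 CPM under vehicle and 506 CPM under entospletinib at day 14. Neutrophil-like cells made up 37.9%, 29.4% and 11.7% of cells under vehicle and 21.7%, 1.75% and 0.455% under entospletinib. Without the ribosomal limit and with cells assigned one by one, they made up 33.4%, 22.3% and 8.88% under vehicle and 15.3%, 1.45% and 0.371% under entospletinib.

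To separate class shares from levels, each was changed alone. A class share here is the class's share of all counts, not of cells, so it also holds differences in depth. The log2 ratio of *Csf3r*, entospletinib over vehicle and not set against the median gene, was -0.94, -1.61 and -1.93 at days 1, 7 and 14. With class shares alone changed it was -0.68, -1.59 and -0.85, and with levels within classes alone changed -0.22, 0.88 and -0.42. For *Ccr1* the ratio was -1.08, -1.84 and -1.76, with -0.65, -1.39 and -0.86 from shares and -0.38, -0.05 and -0.37 from levels. *Csf3r* and *Ccr1* thus followed the shares more than the levels. For *Csf2rb* the ratio was -1.19, -2.08 and -1.71, with -0.53, -1.16 and -0.65 from shares and -0.66, -0.88 and -0.88 from levels. For *Ccr2* at day 14 the ratio was -1.36, with -0.42 from shares and -0.81 from levels. For *Cx3cr1* it was 1.08, 0.49 and 0.13, with 0.41, -0.15 and -0.19 from shares and 0.73, 0.73 and 0.37 from levels, so its higher level went with levels within classes at days 7 and 14. *Csf1r* was at 0.02, -0.01 and -0.30, and *Ccr7* at 0.01, 0.27 and 0.39. The separate values need not add up to the measured ratio. No minimum of cells was set for them. In neutrophil-like cells the levels under entospletinib rest on 117 cells at day 7 and 42 cells at day 14.

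**Figure D5:**
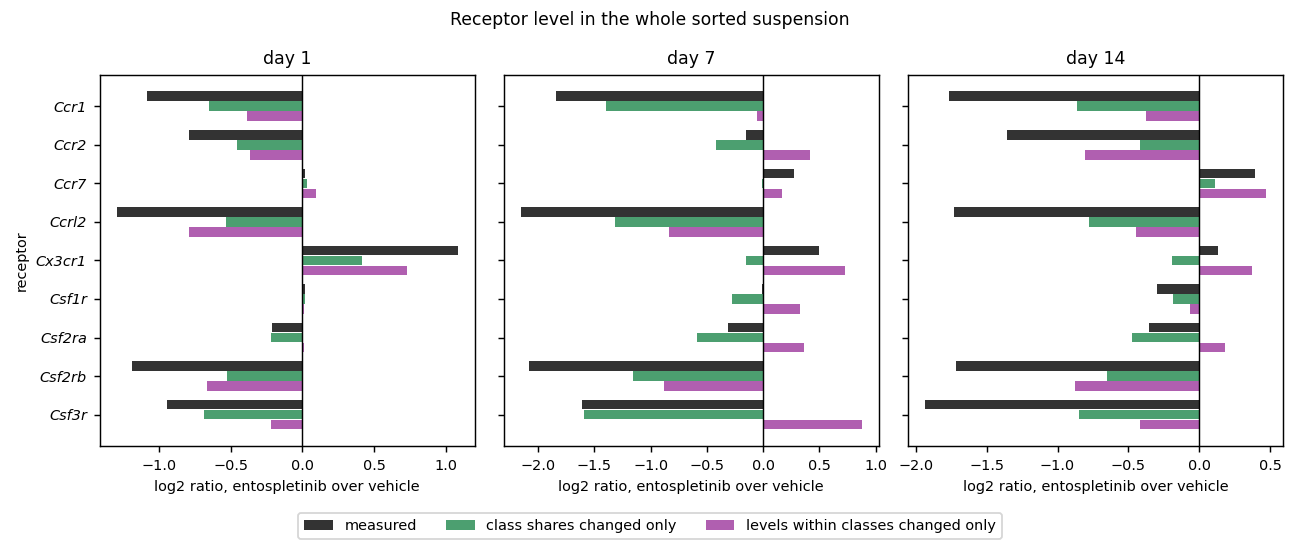
Log2 ratio of entospletinib over vehicle (horizontal axis) for each receptor (vertical axis) over all sorted cells at each day. Bars give the measured ratio, the ratio with class shares (of counts) alone changed and the ratio with levels within classes alone changed. For *Csf3r* at day 7 the measured -1.61 stands beside -1.59 from shares and 0.88 from levels. Under entospletinib, the levels in neutrophil-like cells rest on 117 cells at day 7 and 42 cells at day 14.

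Other genes of these pathways were examined as lists of ligands, other chemokine receptors, receptor partners and signaling genes. In macrophage-like cells 6 of 16 ligand genes passed the 20 CPM limit, and vehicle over control 4 of them were called at day 1, each higher (*Ccl2*, *Ccl7*, *Ccl12* and *Ccl3*), against 12.9% of all genes tested. At days 7 and 14, 3 were called, each higher (*Ccl2*, *Ccl7* and *Ccl12*, the ligands of CCR2), against 4.25% and 5.24%. Under entospletinib over vehicle, 1 was called at days 1 and 7, *Ccl7*, which was lower, against 0.664% and 1.94%, and none at day 14 against 2.39%. Of the other chemokine receptors, 2 of 13 passed the limit and none was called in macrophage-like cells. Of 5 partners and relatives, 1 passed, *Csf2rb2*, the copy of *Csf2rb*, which under entospletinib over vehicle was called at -1.38 at day 7 and -1.22 at day 14, against the same 1.94% and 2.39%. Of 17 signaling genes, 15 passed, and 1 was called at these days, *Socs3*, the feedback inhibitor of cytokine receptor signaling, which was lower. Vehicle over control, *Csf2rb2* and *Socs3* were called higher at days 7 and 14, and *Stat3* at day 14, against 4.25% and 5.24%. At day 1, *Grk3*, *Socs3* and *Rgs1* were called, 2 higher and 1 lower, against 12.9%. In classical monocyte-like cells, entospletinib over vehicle, 5 ligand genes were tested. *Ccl7* was called lower at day 1, *Ccl2* and *Ccl7* lower at day 7, and *Ccl2* higher at day 14. The shares of all genes were 0.826%, 11.3% and 5.71%. In neutrophil-like cells *Csf2rb2* was at -2.03 at day 7, where 21.8% of genes were called.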

How the data were processed

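Single-cell RNA sequencing used combinatorial barcoding of fixed cells (Parse Evercode) from FACS-sorted kidney suspensions. The authors aligned reads to mm10 and deposited counts (unnormalized whole numbers, a transcript tally for each gene in each cell) together with a cell table that names each cell's condition. The annotation release was not given in the sources used here. Kept cells had over 300 genes, under 20000 counts, under 25% mitochondrial and under 1.5% ribosomal protein gene counts, and kept genes were seen in at least 5 cells. Cells were clustered on principal components with the Leiden algorithm, with the receptors left out of the features, at resolution 2 instead of the planned 1, because at 1 some dendritic, T and natural killer cells shared clusters. A class needed at least 3 of its markers among a cluster's 100 leading genes, each in at least 10% of its cells. Called doublets were kept. Relative ratios needed at least 100 cells of the class in both conditions. To both sides of ratios per sublibrary and of pooled ratios within a class, 0.5 counts were added. All 9 receptors are named, with the genes nearest to each and those of the pathway lists past 2-fold. The members and lists were chosen with earlier results of these data known. Same-day pairs of pools at the 3 days would allow a sign-flip test with a smallest two-sided p of 0.25, which was not run. Summing and ratio code was tested on simulated data. The tools were leidenalg 0.10.2, scipy 1.17.1 and numpy 2.4.6 under Python 3.11.15, and edgeR 4.0.16 under R 4.3.3 for TMM scaling.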

Additional observations from a re-analysis of the deposited data

Results flagged for a closer look

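In nonclassical monocyte-like cells, *Csf3r* was higher in 1 sublibrary, at 207 CPM, than in the other sublibraries, by a gap that was large beside their range. In neutrophil-like cells, *Csf3r* was lower in 1 sublibrary, at 2438 CPM. Of 54 groups of 8 sublibraries examined, these were the only ones with such a gap, and chance gives about 1 in 20 groups.

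In neutrophil-like cells, *Csf3r* was lower with entospletinib than with vehicle at day 1 (relative log2 ratio -0.13) and higher at day 7 (1.09), each in 8 of 8 sublibraries. *Ccr1* likewise stood at -0.14 at day 1 and 0.29 at day 7. Without the 20 CPM filter the day 7 values turned to -0.40 for *Csf3r* and -1.20 for *Ccr1*, as the median gene then lay at 1.53 instead of 0.04. The CPM of both receptors stayed the same. These differences between days were not tested, the sublibraries are portions of the same pools, and the day 7 values rest on 117 cells with entospletinib.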

How the results depend on the processing

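Of 4689 values recomputed under an alternative, 4268 stayed within 1 SD over the sublibraries of the value reported (counts within 1.5 times) and 420 moved further, and 1 of the ratios past 2-fold changed sign. Of 115 ratios short of 2-fold, 58 changed sign in at least 1 alternative or left-out sublibrary, 11 of them at least 0.3 from 0 as reported. Of 41 receptor ratios past 2-fold, 16 were past it under every alternative in which they could be computed. Without the 20 CPM filter, *Csf3r* in neutrophil-like cells at day 7, entospletinib over vehicle, was -0.40, because the median gene lay at 1.53 over 25836 genes instead of 0.04. Dropping the filter leaves the CPM of the receptors as they are and moves the median gene only. The number of ratios past 2-fold was 20 of 48 in macrophage-like, 14 of 48 in classical monocyte-like, 3 of 28 in nonclassical monocyte-like and 4 of 32 in neutrophil-like cells. Without the filter it was 27 of 54, 12 of 36 and 14 of 36 in classical monocyte-like, nonclassical monocyte-like and neutrophil-like cells. At resolution 1 it was 0 in classical monocyte-like cells, where 8 ratios could be computed, and 7 of 48 in nonclassical monocyte-like cells. With cells assigned one by one it was 10 of 32 in nonclassical monocyte-like cells, and 9 without the ribosomal limit as well. At resolution 0.5 the monocytes fell into an unnamed cluster and gave no value. Macrophage-like clusters 5 and 15 were left out as alternatives chosen after seeing the data for their shares of called doublets. Without cluster 5, *Ccrl2* at day 1, vehicle over control, was 0.997 and the other macrophage-like ratios past 2-fold stayed past it, whereas without both clusters 10 of 48 were past it. Apart from the shift of the median gene without the filter, the causes were not tested.

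Entospletinib minus vehicle in the log2 ratio of *Ccr2* to *Cx3cr1* stayed negative under every alternative for the comparisons with at least 100 cells. With cells assigned one by one it was -1.29 at day 1 and -1.56 at day 14 in macrophage-like cells, -0.83 at day 1 and -0.81 at day 7 in classical monocyte-like cells and -1.09 at day 1 in nonclassical monocyte-like cells. Without the ribosomal limit as well it was -1.16, -0.94 and -1.16 at day 1 in the same order of classes. With more than 500 genes per cell it was -1.16 at day 14 in macrophage-like cells, and at resolution 1 it was -0.93 at day 1 in classical monocyte-like cells.

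When single sublibraries were left out, the counts past 2-fold were 18 to 20, 12 to 15, 3 to 4 and 3 to 4 in the classes as ordered above. The difference in the *Ccr2* to *Cx3cr1* ratio ranged from -0.69 to -0.55, -0.51 to -0.44 and -1.42 to -1.36 at days 1, 7 and 14 in macrophage-like cells, from -1.36 to -1.21, -0.53 to -0.36 and -1.61 to -1.33 in classical monocyte-like cells, and from -0.88 to -0.74 at day 1 and -1.52 to -0.77 at day 14 in nonclassical monocyte-like cells. Of the ratios past 2-fold, 9 fell short when 1 sublibrary was left out. For entospletinib over vehicle these were *Csf2rb* in macrophage-like cells at day 7 (-0.94 without sublibrary 1, -0.98 without 3, -0.996 without 5), *Ccr2* there at day 14 (-0.999 without 1), *Ccr2* (-0.93 without 4), *Csf2rb* (-0.99 without 2) and *Csf3r* (-0.99 without 5) in classical monocyte-like cells at day 14, and *Csf3r* in neutrophil-like cells at day 7 (0.92 without 5). For vehicle over control they were *Csf3r* at day 7 (-0.91 without 4, -0.90 without 5) and *Ccrl2* at day 14 (0.93 without 2) in classical monocyte-like cells, and *Ccrl2* at day 14 in nonclassical monocyte-like cells (0.96 without 3).

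No replicate block could be fitted because each condition was 1 pool and each deposited sample held cells of every condition. Pairing the pools by day was not run. Depth limits the entospletinib day 14 pool, at 960 counts per cell, and the classes with few cells.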
